A study of Mus musculus with 4 samples.

Results

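Steep and shallow replication initiation zones of similar width were compared in E14tg2a cells, a mouse embryonic stem cell line. The members were chosen by the deposited score and the width of each zone. Steep zones were the 10% with the highest score per 1 kb bin, and shallow zones the 10% with the lowest, among zones of 30 to 60 bins on chromosomes 1 to 19. They were chosen separately in each of 2 deposited zone lists, set 1 and set 2. Set 1 gave 663 steep and 663 shallow zones out of 6632 of that width. Set 2 gave 574 and 574 out of 5745. The members thus numbered 2474 of 55863 listed zones. Steep and shallow are short names for high and low score per bin. What the score measures is not stated in the sources used here, so whether it is a slope could not be checked.

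Replication starts at many sites in each cell cycle, and neighbouring start sites form broad initiation zones from which forks move outwards in both directions. DNA polymerase ε copies mainly the leading strand, so the strand that carries its mark switches where forks diverge. Polymerase-usage sequencing reads that switch from ribonucleotides that a mutant polymerase leaves behind, and alkali breaks DNA at each of them. A narrow or efficient start site gives an abrupt switch in such data, and dispersed starts give a gradual one.

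The 4 samples came from a parent line and from a line derived from it, with 2 replicates each. Both genotypes list Tet-OsTIR1 at Rosa26 and mAID-RNaseh2a with puroR, and the derived line adds Pole1-M630F. Each of these alleles is marked (bi). RNaseh2a encodes the catalytic subunit of RNase H2, which excises ribonucleotides from DNA, and its degron tag allowed depletion in both lines. All cells received doxycycline and auxinole for 24 h, then doxycycline and IAA for 12 h. The lists hold no values for parent and mutant separately, and which libraries entered them is not stated. Both lines shared the RNaseh2a depletion, and nothing in the labels says whether replicates were separate cultures. Read depth per library is unknown here, so no error from counting reads could be given.

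Each list gives a first bin, a last bin and a score on the GRCm39 assembly, with all positions on a 1 kb grid. The score is the authors' own value for a zone. Among all zones of 30 to 60 bins the median score per bin was 0.652 in set 1 and 0.610 in set 2. Levels were not compared between the sets, because the scale of each list is unknown. A relative score per bin was therefore used, which is the score per bin divided by that median of the same set.

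Between the classes the score per bin differed several fold, which the choice itself fixes. Steep zones of set 1 ran from 1.13 to 2.56 per bin with a median of 1.31, and its shallow zones from 0.0236 to 0.304 with a median of 0.238. In set 2 the steep zones ran from 1.10 to 2.77 with a median of 1.27, and the shallow zones from 0.0276 to 0.284 with a median of 0.218. The thresholds fell inside a continuous range. In set 1 the last zone inside the shallow class and the first outside had the same value of 0.304, and at the steep end 1.135 lay inside and 1.134 outside. For set 2 the shallow boundary lay between 0.28400 and 0.28427, and the steep boundary between 1.094 outside and 1.095 inside.

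**Figure D1:**
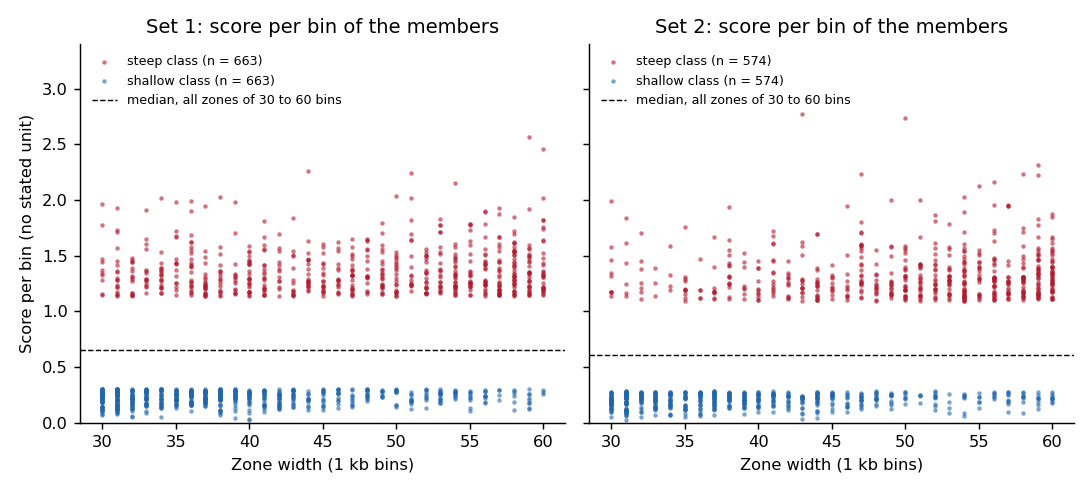
Score per bin (vertical axis, no stated unit) of each member against zone width in 1 kb bins, for set 1 and set 2. Each point is 1 zone, red for steep and blue for shallow, and the dashed line is the median of all zones of 30 to 60 bins (0.652 and 0.610). Red points crowd towards the wide end and blue points towards the narrow end.

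Width was limited by the choice but not equal between the classes. Steep zones had a median width of 48 bins in set 1 and 52 bins in set 2, against 37 and 38 bins for shallow zones. Across all zones of 30 to 60 bins, score per bin and width had a rank correlation of 0.215 in set 1 and 0.287 in set 2. These zones share a list and their widths enter both quantities, so the correlation is a description. Overlap by at least 1 bin, the share of bins covered, partner score per bin and gaps were therefore also compared with classes taken within each width. The other overlap rules, cover around centres, distance bands and class pairs were not matched for width.

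The first comparison asked whether the other set placed a zone where the member lay. The members of one set were chosen without the other list, but an overlap between the lists counts in both directions, so the values of the sets are not fully separate. In set 1, 610 of 663 steep zones met a zone of set 2 by at least 1 bin, or 92.0% (95% interval 89.7 to 94.0, exact Clopper-Pearson). Of the shallow zones of set 1, 425 of 663 did so, or 64.1% (60.3 to 67.8). All zones of 30 to 60 bins in set 1 were met in 78.9% of cases. In set 2, 537 of 574 steep zones met set 1, or 93.6% (91.2 to 95.4), against 395 of 574 shallow zones, or 68.8% (64.8 to 72.6). The share over all such zones of set 2 was 80.9%. Steep zones thus lay above that share and shallow zones below it in both sets. The intervals cover counting error only and treat neighbouring zones as independent.

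The difference between classes was 27.9 percentage points in set 1 and 24.7 in set 2, a mean of 26.3 ± 2.24 (SD, n = 2 sets). Steep zones had the higher share on 19 of 19 chromosomes in set 1 and on 18 of 19 in set 2, and no chromosome had the lower share. Over chromosomes the difference was 28.1 ± 12.1 points (SD, n = 19) in set 1 and 24.7 ± 13.0 in set 2. Only the sets were taken as replicates. An exact two-sided sign-flip permutation test over 2 sets cannot go below p = 0.5, so no result here could pass a test. By midpoints within 10 kb, 38.0% of steep and 22.5% of shallow zones of set 1 were met, beside 29.0% of all zones of that width. Set 2 gave 40.4% and 27.0% beside 32.2%, and the mean difference was 14.5 points. By at least 50% of the member's bins covered, 70.3% of steep and 28.2% of shallow zones of set 1 were met, beside 46.1% over all. Set 2 gave 67.4% and 27.4% beside 42.7%, and the mean difference was 41.1 points.

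Overlap also moved with width. At 30 to 34 bins, 57 of 77 steep zones (74.0%) and 120 of 222 shallow zones (54.1%) of set 1 met set 2, beside 66.2% of all its zones of that width. At 55 to 60 bins, 182 of 186 steep zones (97.8%) and 33 of 40 shallow zones (82.5%) did so, beside 91.2%. Set 2 gave 23 of 29 steep zones (79.3%) against 114 of 197 shallow zones (57.9%) at 30 to 34 bins, beside 68.9% of all. At 55 to 60 bins it gave 195 of 200 (97.5%) against 41 of 46 (89.1%), beside 91.9%. In all 6 width ranges of both sets, steep zones lay above the share of all zones of the same range and shallow zones below it. Across ranges this did not hold: the narrowest steep zones lay below the 78.9% and 80.9% met at all widths, and the widest shallow zones above. With the classes taken within each single width, so that their median widths were equal, the difference was 19.1 points in set 1 and 16.6 in set 2.

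Steep zones also shared more of their bins with the other set. The partner of a member was the zone of the other set that shared most bins with it. At least 50% of both zones was shared for 341 of 663 steep zones of set 1 (51.4%) and for 110 of 663 shallow zones (16.6%), with 30.7% over all zones of that width. The counts of set 2 were 288 of 574 (50.2%) and 107 of 574 (18.6%), with 31.2% over all. The median share of a member's bins that lay inside zones of the other set was 79.6% for steep and 16.1% for shallow zones of set 1. It was 67.5% and 20% in set 2, and steep zones were higher on 19 of 19 chromosomes in each set. With classes taken within each single width, this median share differed by 57.6 points in set 1 and 41.6 in set 2. Complete cover by the other set occurred for 201 steep (30.3%) and 61 shallow zones (9.20%) of set 1, beside 16.0% of all zones of that width. In set 2 it occurred for 126 (22.0%) and 40 (6.97%), beside 11.0%. All these values also count members without a partner. Among members with a partner, the median shared part of the wider zone was 52.1% for steep and 30.5% for shallow zones of set 1. In set 2 it was 52.4% and 32.3%. Midpoints differed less, with a median offset from the partner of 13.5 kb and 15.5 kb in set 1. Set 2 gave 13 kb and 14.5 kb. Where at least 50% of both was shared, offsets were 9 kb and 8 kb, then 8 kb and 9 kb.

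Cover of shallow centres by the other set was close to that of positions 200 kb away, while cover of steep centres was about 2 times as high. Zones of set 2 covered 70.4% of the centres of set 1 steep zones and 31.2% of those of shallow zones. At 200 kb from the centre, cover by set 2 was 34.1% beside steep and 32.3% beside shallow zones. Zones of set 1 covered 67.4% of steep and 33.6% of shallow centres of set 2, against 33.2% and 33.4% at 200 kb. Around steep zones the other set was sparse at intermediate distance. Its cover was 24.4% at 75 kb from set 1 steep centres and 21.9% from set 2 steep centres, against 29.9% and 30.9% beside shallow zones. Zones between the classes had cover of 47.2% and 44.4% at the centre and of 28.3% and 26.5% at 75 kb.

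**Figure D2:**
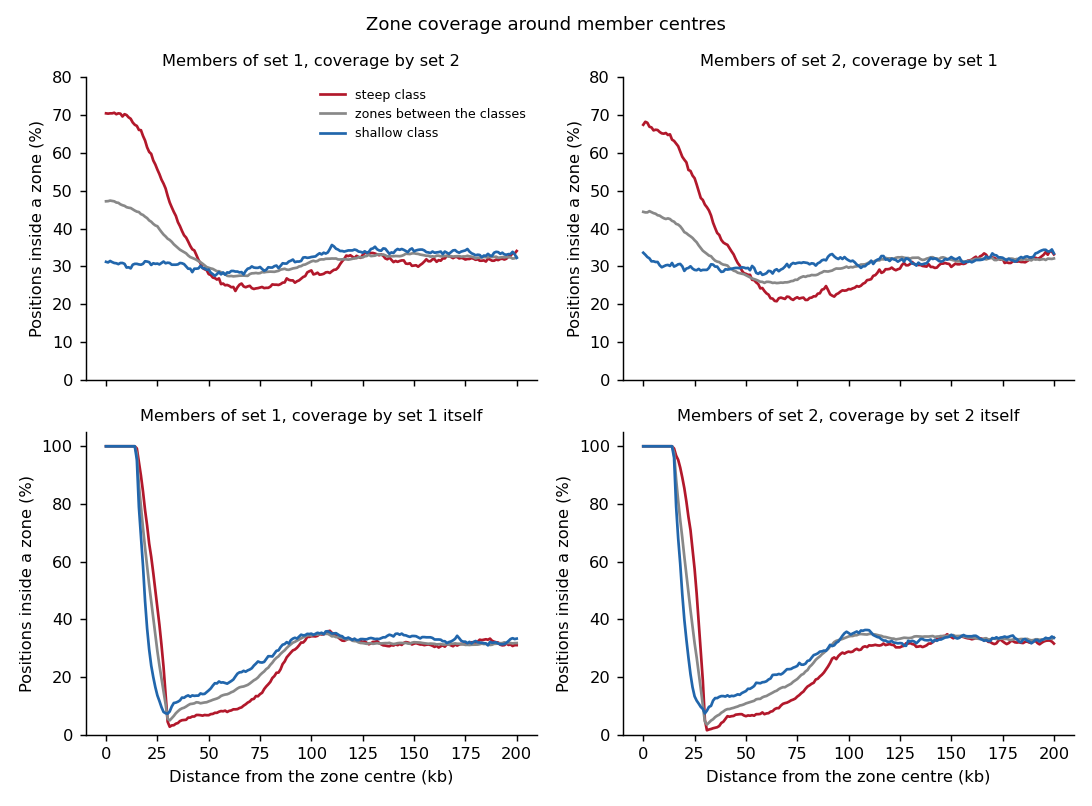
Share of positions inside a zone (vertical axis, %) by distance from the zone centre in kb, both sides averaged, for members of set 1 (left) and set 2 (right). The upper panels show cover by the other set and the lower panels cover by the same set. Red is the steep class, blue the shallow class and grey the zones between; in the upper panels red starts at 70.4% and 67.4%, and blue goes from 31.2% and 33.6% at the centre to 32.3% and 33.4% at 200 kb.

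Partner zones of steep members had the higher score per bin. This is the same quantity in the set that did not choose the member. For 610 steep zones of set 1 with a partner, the partner's relative score per bin had a median of 1.36 (interquartile range 0.934 to 1.87), against 0.760 (0.467 to 1.22) for the partners of 425 shallow zones. For set 2 the medians were 1.21 (0.852 to 1.65) over 537 steep zones and 0.796 (0.495 to 1.13) over 395 shallow zones. The quartile ranges of the classes overlapped in both sets. The difference in medians was 0.598 in set 1 and 0.412 in set 2, a mean of 0.505 ± 0.131 (SD, n = 2 sets). Partners of steep zones had the higher median on 18 of 19 chromosomes in set 1 and on 19 of 19 in set 2.

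Partners also differed in width. Steep zones had partners with a median width of 61 bins in set 1 and 56 in set 2, against 39 and 33 bins for shallow zones. Of all steep zones of set 1, 46.3% had a partner wider than 60 bins, against 16.6% of shallow zones and 28.3% of all zones of 30 to 60 bins. The shares in set 2 were 37.3%, 12.9% and 19.7%. Score per bin was higher in wider zones, as given above, so partners were also compared within the same width limits. With partners of 30 to 60 bins only, the difference in relative score per bin was 0.316 in set 1 and 0.317 in set 2. With members taken within each single width and partners of any width, the difference was 0.571 in set 1 and 0.375 in set 2. Of the zones that met the other set, 9.18% of steep and 8.71% of shallow zones in set 1 had 2 or more partners, and 16.4% and 14.2% in set 2. The shares over all zones that met the other set were 12.1% in set 1 and 16.2% in set 2.

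Steep zones had a steep partner at a higher share than all pairs did. For shallow zones with a shallow partner, the interval included the share of all pairs. The intervals here cover counting error only, treat zones as independent and are not a test. The share of all pairs also includes the members themselves. The count covers pairs in which both zones had 30 to 60 bins and shared at least 50% of both. Of 150 steep zones of set 1 in such pairs, 40 (26.7%, 95% interval 19.8 to 34.5, exact Clopper-Pearson) had a partner in the steep class of set 2, where 13.3% of all such pairs did. Of 67 shallow zones, 7 (10.4%, 4.30 to 20.3) had a partner in the shallow class, where 6.69% of all pairs did. Seen from set 2, 40 of 143 steep zones (28.0%) and 7 of 72 shallow zones (9.72%) had a partner of their own class, beside 13.9% and 6.23% of all pairs. A shallow partner was seen for 7 of the 150 steep zones of set 1 (4.67%, 1.90 to 9.38), an interval that included the 6.69% of all pairs. A steep partner was seen for 3 of its 67 shallow zones (4.48%, 0.933 to 12.5), below the 13.3% of all pairs. In set 2, 3 of 143 steep zones had a shallow partner (2.10%, 0.435 to 6.01), below 6.23%. A steep partner was seen for 7 of the 72 shallow zones of set 2 (9.72%), with an interval that included 13.9%. The same 1076 pairs are counted from both sets, so counts from set 2 repeat those from set 1 and are no second observation. For partners of opposite class, the same 3 pairs gave both shares whose intervals lay below that of all pairs. The same 7 pairs of opposite class gave both shares whose intervals included it. Over all 1076 pairs the rank correlation of score per bin between the sets was 0.210. It is given as a description across zones, with no p-value.

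Of the 40 pairs that were steep in both sets and shared at least 50% of both zones, the 5 with the best mean rank follow as examples. That choice requires high scores per bin and similar extents in both lists, so neither is a result. The first lay on chromosome 13 at 24426000–24485000 in set 1 (60 bins, 2.02 per bin, 3.10 times the median) and at 24426000–24468000 in set 2 (43 bins, 1.59 per bin, 2.60 times). The second lay on chromosome 3 at 47620000–47677000 in set 1 (2.47 times) and 47594000–47649000 in set 2 (3.21 times). Chromosome 14 held the third, at 3543000–3602000 in set 1 (3.77 times) and 3525000–3584000 in set 2 (2.47 times). This zone lay at 0.420% of the chromosome's zone-bearing span. Chromosome 5 held the next, 33 bins wide at 32839000–32871000 in set 1 (2.93 times) and 39 bins wide at 32842000–32880000 in set 2 (2.50 times). The zone on chromosome 12 at 88288000–88340000 in set 1 (2.63 times) and 88290000–88344000 in set 2 (2.54 times) had the closest match of these 5, with midpoints 3 kb apart.

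The 5 lowest-ranked of the 7 pairs that were shallow in both sets, chosen by the same overlap rule, were spread over 5 chromosomes. The lowest lay on chromosome 16 at 65122000–65172000 in set 1 (0.254 times the median) and 65122000–65151000 in set 2 (0.189 times). Chromosome 9 held one at 48196000–48233000 in set 1 (0.308 times) and 48205000–48248000 in set 2 (0.176 times). On chromosome 1, the pair at 118719000–118771000 in set 1 (0.308 times) and 118725000–118765000 in set 2 (0.286 times) had the same midpoint. The remaining pairs began at 114140000 on chromosome 10 (0.350 times) and at 10681000 on chromosome 11 (0.460 times) in set 1, with partners at 0.251 and 0.223 times in set 2.

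The zones with the most extreme scores per bin in their own list are described next. Partners of the 3 highest zones of each set had lower relative scores per bin than these zones. The highest of set 1, on chromosome 17 at 92888000–92946000, had 2.56 per bin (3.93 times the median), and its partner in set 2 was 104 bins wide at 2.78 times. The highest of set 2, on chromosome 7 at 86733000–86775000, had 2.77 per bin (4.54 times), and its partner in set 1 was 82 bins wide at 1.31 times. The next in set 2 lay on chromosome 12 at 6631000–6680000 (4.48 times), with a partner of 60 bins in the steep class of set 1 at 2.17 times. The zone after it, on chromosome 4 (3.79 times), had a partner at 1.14 times. In set 1 the next zones, on chromosomes 14 and 11 (3.77 and 3.46 times), had partners at 2.47 and 2.39 times. The 3 lowest zones of set 1 lay at 28356000–28395000 on chromosome 10, 116662000–116701000 on chromosome 9 and 87790000–87828000 on chromosome 11, at 0.0362, 0.0552 and 0.0608 times the median. Each had 0% of its bins inside a zone of set 2. The lowest zone of set 2, on chromosome 5 at 82214000–82244000 (0.0452 times), was covered in part by a set 1 zone of 62 bins at 1.53 times the median. These extremes are described from values that chose them, so less extreme partners are not read as a failure to repeat.

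Some pairs differed in class, counted here over partners of 30 to 60 bins with at least 1 shared bin. Of 205 steep zones of set 1 with a partner of 30 to 60 bins, 11 (5.37%) had a shallow partner in set 2, beside 7.31% of all zones with such a partner. Of 203 in set 2, 7 (3.45%) had a shallow partner in set 1, beside 7.23%. Such pairs were thus no more frequent among steep zones than over all. The pairs below are examples of opposite class, so a large difference in score per bin follows from that choice. They shared 91.4%, 88.7% and 60.7% of the wider zone on chromosomes 6, 7 and 9. The pairs picked out in each set stood in falling order of that share, so close extents are not read as a result. A pair on chromosome 16 (2.10 times the median in set 1, 0.256 in set 2) differed more than that on chromosome 7. On chromosome 6, the zone at 136915000–136947000 had 33 bins and 2.46 times the median in set 1. Its partner in set 2 at 136912000–136946000 had 35 bins and 0.266 times, with midpoints 2 kb apart. On chromosome 7, the pair at 24950000–25002000 in set 1 and 24945000–24996000 in set 2 stood at 2.11 and 0.451 times. On chromosome 9, the set 2 zone at 26841000–26881000 stood at 2.74 times and its set 1 partner at 26819000–26874000 at 0.452 times. The last pair was the least alike in extent, with 41 bins against 56 and midpoints 14.5 kb apart.

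Among the distances examined, score per bin in the other set differed most between the classes at the shortest. Zones of at least 30 bins with midpoints under 25 kb apart must overlap, so this shortest band is not separate from the partner comparison. Zones of 30 to 60 bins in set 2 with midpoints within 25 kb of a set 1 steep midpoint had a median relative score per bin of 1.28 (161 pairs), against 0.899 near shallow midpoints (91 pairs). Set 1 zones near set 2 members gave 1.34 (158 pairs) and 0.945 (95 pairs). From 25 to 100 kb the medians were 1.05 and 0.899 for set 1 members, and 1.04 and 0.923 for set 2 members. From 500 to 1000 kb they were 0.976 beside steep and 1.02 beside shallow zones of set 1, and 0.991 and 1.04 for set 2. Zones in these bands are shared by several members and are not independent, and the bands were not tested against each other.

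Over 10 ranked groups of score per bin, the values rose from the lowest to the highest group with dips between. The share met by the other set was 64.1% in the lowest group of set 1, 73.2% in the second, 80.5% in the sixth, 79.6% in the seventh, 84.8% in the ninth and 92.0% in the highest. Set 2 went from 68.8% in the lowest group and 73.0% in the second to 71.7% in the third, 79.8% in the fourth and 78.4% in the fifth. It then reached 86.8% in the seventh, 86.4% in the eighth and 93.6% in the highest. The median relative score per bin of the partner went from 0.760 to 1.36 in set 1, with 0.863 in the fourth group below 0.914 in the second, and from 0.796 to 1.21 in set 2, with 0.767 in the second group. Median width went the same way, from 37 to 48 bins in set 1 and from 38 to 52 bins in set 2.

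**Figure D3:**
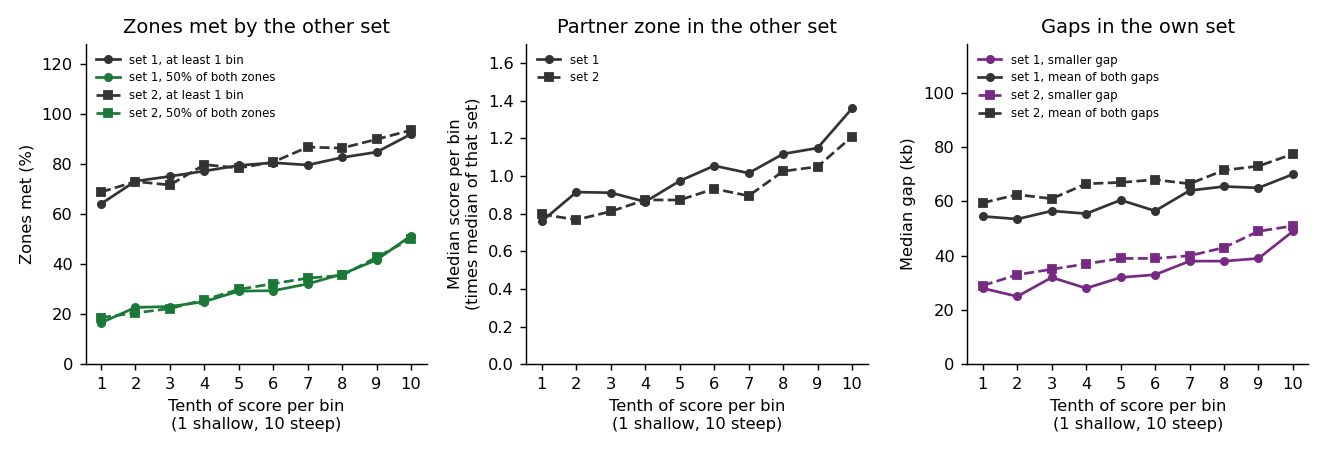
Values by ranked group of score per bin (horizontal axis, 1 shallow to 10 steep) for set 1 (circles, solid) and set 2 (squares, dashed). The left panel shows the share of zones met (%), by at least 1 bin in black and by 50% of both zones in green; the middle panel the partner's median score per bin over the median of its set; the right panel median gaps in kb, mean of both in black and the smaller in purple. Each series ends higher at 10 than at 1, such as 64.1% to 92.0% of set 1 zones met.

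The second comparison asked how much zone-free DNA lay beside each class. Gaps were counted from the edge of a member to the nearest zone of the same set. The mean of both gaps had a median of 70 kb (interquartile range 51.5 to 91.5) beside steep zones of set 1 and of 54.5 kb (36.5 to 77) beside shallow zones. Medians of set 2 were 77.5 kb (56 to 100.4) and 59.5 kb (40.5 to 83.4). Set 1 differed by 15.5 kb and set 2 by 18 kb, a mean of 16.8 kb ± 1.77 (SD, n = 2 sets), larger than the spread between the sets. Steep zones had the larger median on 18 of 19 chromosomes in set 1 and on 17 of 19 in set 2.

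By medians, the nearer neighbour separated the classes more than the mean gap did, but by means the order turned. Differences in mean were 12.5 kb for the smaller gap and 14.1 kb for the mean gap in set 1, and 15.8 kb and 18.1 kb in set 2. The smaller gap had a median of 49 kb beside steep and 28 kb beside shallow zones of set 1, and of 51 kb and 29 kb in set 2. A neighbour within 20 kb lay beside 164 steep (24.7%) and 276 shallow zones (41.6%) of set 1, with 34.8% over all zones of that width. Counts of set 2 were 129 (22.5%) and 224 (39.0%), with 30.1% over all. Both gaps reached 50 kb for 324 steep zones (48.9%) and 164 shallow zones (24.7%) of set 1, with 32.5% over all, and for 298 (51.9%) and 151 (26.3%) of set 2, with 39.5% over all. No gap was under 10 kb in either class. With classes of equal width, the smaller gap differed by 17 kb in set 1 and 20 kb in set 2.

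**Figure D4:**
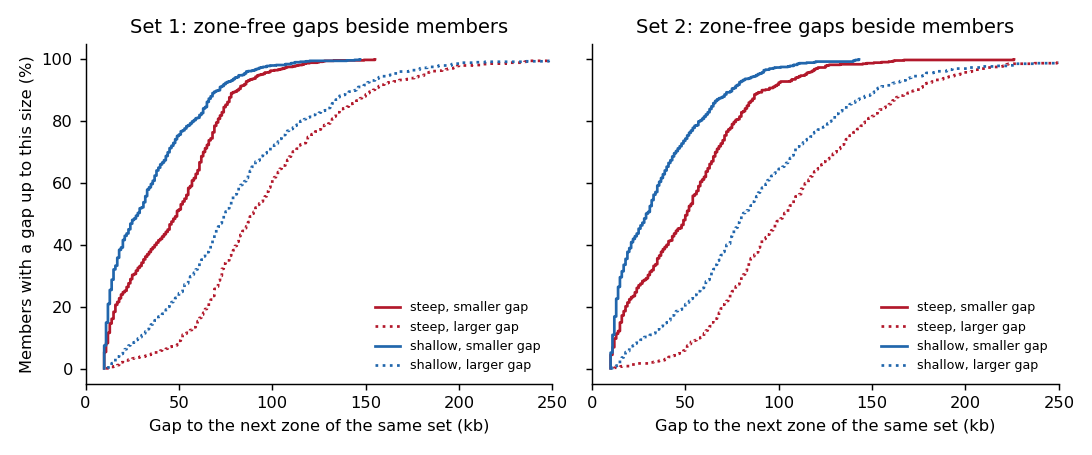
Cumulative share of members (vertical axis, %) with a gap up to the size on the horizontal axis (kb), for set 1 and set 2. Red is steep and blue shallow, solid lines the smaller and dotted lines the larger of both gaps of a zone; the axis ends at 250 kb. Blue lies above red for both gaps, and the medians of the smaller gap are 28 kb against 49 kb in set 1.

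Both sides of a member contributed alike. The gap towards lower coordinates had a median of 69 kb beside steep and 50 kb beside shallow zones of set 1, and that towards higher coordinates 66 kb and 50 kb. In set 2 these were 76.5 kb and 56.5 kb, then 70.5 kb and 51.5 kb. Steep zones had wider neighbours by a few bins, with a median mean width of 27 against 24 bins in set 1 and 32.5 against 28 in set 2. Larger gaps beside steep zones thus did not come with narrower neighbours. When neighbours of up to 10 bins were passed over, the median gap was 95.8 kb beside steep and 81.5 kb beside shallow zones of set 1, and 105.3 kb and 86.3 kb in set 2.

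Distances to zones of the other set were also larger beside steep zones, but this measure depends on overlap. It runs from the edges of a member to the nearest zones of the other set wholly outside it and passes over zones that overlap the member. Steep zones were met more often and by wider partners, and how far this lengthened the distance was not tested. The mean distance had a median of 77 kb for steep and 59.3 kb for shallow zones of set 1. For set 2 the medians were 69.5 kb and 53.5 kb. The mean difference was 16.9 kb ± 1.24 (SD, n = 2 sets), and steep zones were higher on 18 of 19 chromosomes in set 1 and on 16 of 19 in set 2. The nearer of the outside zones lay a median of 45 kb from steep and 27 kb from shallow members of set 1, and 38 kb and 26 kb in set 2. For members that met no zone of the other set, no zone is passed over. The nearest zone then lay a median of 16 kb from 53 steep and 15 kb from 238 shallow zones of set 1, beside 14 kb over all unmet zones of that width. Set 2 gave 8 kb for 37 steep and 13 kb for 179 shallow zones, beside 13 kb. Among these members steep zones did not have the larger distance in both sets. They were selected by their lack of overlap, so they do not stand for the members that were met.

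Position was measured along the zone-bearing span of a chromosome, from its outermost zones in either list. The median distance to the nearer end of this span was 31.6 Mb for steep and 29.5 Mb for shallow zones of set 1, and 29.6 Mb and 30.9 Mb in set 2. The difference of 2.09 Mb in set 1 and -1.32 Mb in set 2 changed sign between the sets. The opposite signs themselves depended on the choice of members: both sets were positive with the highest and lowest 20% (1.36 and 0.293 Mb), within each width (0.593 and 0.254 Mb) and with X added (2.38 and 0.608 Mb), and both negative with 5% (-2.16 and -0.636 Mb). Relative position kept its direction, with steep zones lower in both sets. It had a median of 48.3% for steep and 50.8% for shallow zones of set 1, and of 47.3% and 53.6% in set 2. Relative position counts from the end with low coordinates, where mouse assemblies place the centromere. The mean difference was -4.39 points, and it ran from -6.99 to -2.55 over 10 alternatives, below 0 in each. These alternatives draw on the same lists and are not independent. Steep zones had the lower median position on 11 of 19 chromosomes in set 1 and on 16 of 19 in set 2. Over chromosomes the difference was -1.82 ± 14.7 points (SD, n = 19) in set 1 and -8.25 ± 12.2 in set 2. The first 25% of the span held 26.4% of steep and 27.0% of shallow zones of set 1, beside 24.8% of all zones of that width. In set 2 it held 27.7% of steep and 22.1% of shallow zones, beside 23.5%.

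Chromosomes differed in their share of steep zones by little more than a few points. The share of zones of 30 to 60 bins that were steep ran from 7.60% on chromosome 4 to 13.1% on chromosome 12 in set 1, and from 7.24% on chromosome 19 to 13.7% on chromosome 12 in set 2. The SD over chromosomes was 1.60 points in set 1 and 1.88 in set 2. Chromosome 12 was highest in both sets, with 41 of 313 and 39 of 285 zones. The shallow share ran from 6.57% on chromosome 2 to 12.9% on chromosome 13 in set 1, and from 7.02% on chromosome 12 to 16.1% on chromosome 16 in set 2. Across 19 chromosomes the rank correlation between the sets was 0.377 for steep and -0.0982 for shallow shares, given as a description of chromosomes that share a library.

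**Figure D5:**
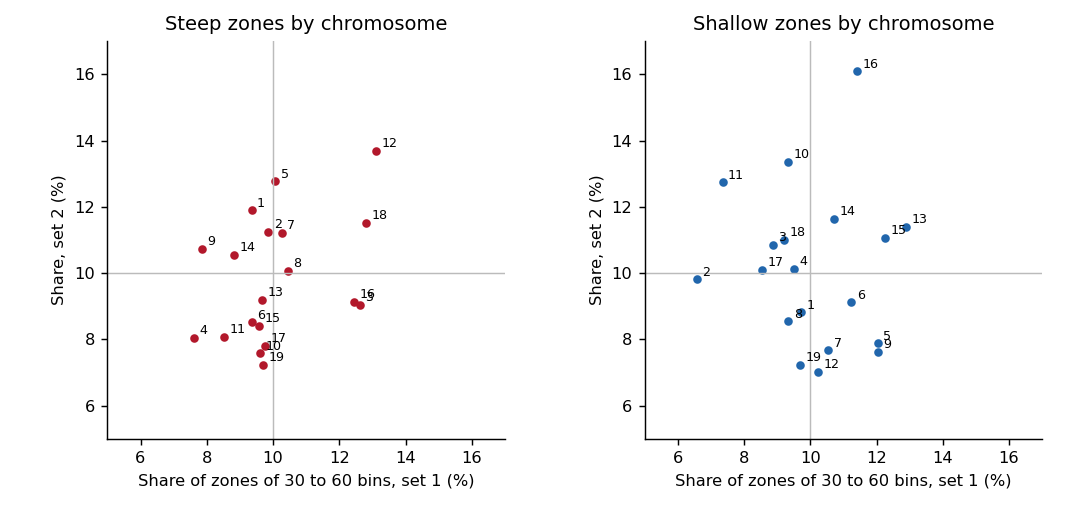
Share of zones of 30 to 60 bins in the steep class (left, red) and in the shallow class (right, blue) on each chromosome, set 1 on the horizontal and set 2 on the vertical axis, in %. Each point is 1 numbered chromosome and grey lines mark 10%. Chromosome 12 lies at 13.1% and 13.7% in the steep panel, and chromosome 16 is highest in set 2 at 16.1% in the shallow panel.

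Distances between members of a class follow the size of the class, so they are compared only between classes of equal size. The nearest other member of the same class lay a median of 1396 kb away for steep and 1181 kb for shallow zones of set 1, and 1503 kb and 1392 kb in set 2. The mean difference was 163.3 kb ± 73.9 (SD, n = 2 sets), and steep zones were higher on 11 of 19 and 12 of 19 chromosomes. It ranged from 15.8 kb, with classes of 1326 and 1149 zones, to 594.1 kb, with classes of 212 and 186 zones. Class size differed between these alternatives, so the range does not compare like with like. In set 2 alone the difference turned to -12.5 kb within each width and to -16 kb with X added, so its direction depended on how members were chosen. In 230 windows of 10 Mb, a median of 5 steep and 5 shallow zones of both sets together were found. The window with the highest steep count lay on chromosome 16 at 13112000–23111000, where 7 of 33 zones of 30 to 60 bins in set 1 and 7 of 32 in set 2 were steep. The highest shallow count was 12, in windows on chromosomes 1, 9 and 16. The window on chromosome 1 from 33075000–43074000 held 4 shallow zones among 28 in set 1 and 8 among 26 in set 2. That on chromosome 9 from 93001000–103000000 held 11 among 33 in set 1 and 1 among 29 in set 2. That on chromosome 16 from 83112000–93111000 held 6 among 28 and 6 among 20. These windows were picked for their counts, which are given as a description. Counts per window had a rank correlation between the sets of 0.0751 for steep and -0.0678 for shallow zones.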

How the data were processed

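The members and measures were chosen with earlier results of these data known. Bowtie2 and the GRCm39 build are named in the submitters' processing notes. No source used here gives its version, the zone caller or the libraries behind each list. The authors deposited 2 lists with a score per zone and no unit. Positions are multiples of 1 kb, so width was counted as the last minus the first bin plus 1. Zones of 30 to 60 bins on chromosomes 1 to 19 were ranked by score divided by width, and the highest and lowest 10% of each list were taken. Overlap meant at least 1 shared bin. Relative values were ratios to the median of the same deposited list. Intervals are exact Clopper-Pearson at 95%. No p-value was computed over zones or chromosomes, and each difference was tested over the sets by an exact sign-flip permutation. Functions were tested on simulated data. Regions named were the 3 extremes per class and set, the 5 best-ranked pairs per class, up to 3 pairs of opposite class per set and the fullest 10 Mb windows; some are given as counts only. Zones on chromosome 18 were counted but not named. The gene and promoter tables at hand are on another assembly, so genes and sequences were not analysed here. Alternatives changed the width limits, class size, chromosomes, overlap rule, partner, gap and summary. Calculations used Python 3.11.15, NumPy 2.4.6, pandas 2.3.3, SciPy 1.17.1 and Matplotlib 3.10.9.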

Additional observations from a re-analysis of the deposited data

Results flagged for a closer look

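The distance to the nearer chromosome end went in opposite directions in the sets. Steep zones lay 2.09 Mb farther from the end than shallow zones in set 1, and the difference was -1.32 Mb in set 2. With the highest and lowest 20%, classes within each width or X added, both sets were positive, and with 5% both were negative. The difference between the sets was not tested, since each set is a single list.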

How the results depend on the processing

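Every alternative run kept steep above shallow zones in overlap, partner score per bin and both kinds of gap, with ranges of 14.5 to 41.1 points, 0.317 to 0.652 times the median, 13 to 21.5 kb in the own set and 15 to 22.3 kb in the other set. The values below are means of both sets, and what caused the moves was not tested. Distances to the nearest member also follow class size, which differed between some alternatives. Zones of 40 to 50 bins gave 19.6 points of overlap, an own gap difference of 13 kb and 594.1 kb to the nearest member. Taking the highest and lowest 20% gave 20.3 points, 14 kb in the own and 15.4 kb in the other set, and 15.8 kb to the nearest member. Taking 5% gave 29.7 points, 0.652 times, 19.5 kb, 22.3 kb and 506.8 kb, and reversed the distance to the chromosome end to -1.40 Mb. Classes taken within each width gave 17.9 points, 13 kb and 15.4 kb. Overlap was 33.2 points by 50% of both zones, 14.5 by midpoints and 41.1 by 50% of the member covered. Partners of 30 to 60 bins gave 0.317 times. The smaller gap differed by 21.5 kb in the own and 15 kb in the other set. Means in place of medians gave 15.1 kb in the other set and reversed the distance to the end to -0.202 Mb. Adding X gave 49.3 kb to the nearest member. With either set left out, the values were 24.7 and 27.9 points, 0.412 and 0.598 times, 15.5 and 18 kb, 16 and 17.8 kb, -1.32 and 2.09 Mb, and 111 and 215.5 kb. The gap past narrow neighbours, and the smaller gap within each width, were chosen after seeing the data. Depth is unknown, so its effect on the shallow zones could not be measured.

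No paired analysis was possible because no value per line is given and the libraries behind each list are not stated. The labels do match replicate numbers across the lines.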
